A study of Mus musculus with 7 samples.

Results

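CD8 T cells with Ccl5 RNA were described in a single-cell library of sorted mouse spleen CD8 T cells. A cell barcode was a member when it had 200 or more genes, at most 10% mitochondrial UMIs, no UMI of the B cell gene Cd79a, at most 1 UMI of the myeloid gene Lyz2, 2 or more UMIs of Ccl5, and at least 1 UMI of Cd44, Il2rb, Cxcr3, Nkg7 or Eomes. A UMI is a tag that marks 1 captured RNA molecule. In all, 1279 of 4644 kept CD8 barcodes were members (27.5%, exact binomial 95% interval 26.3% to 28.9%), out of 27733 kept barcodes in the series. The members were chosen by the UMIs of these 6 genes, so the levels of those genes are a description. CD8 cells gave 1 library, so no comparison here has a replicate check or a test, and all intervals cover counting error only.

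All libraries came from spleens of 8-week-old male C57BL/6 mice, and all were sorted as CD3+ NK1.1- TCRαβ+ TCRγδ- cells. The CD8 library held the CD4-CD8+ cells of that gate, the CD4 library the CD4 cells, and the TCRab library the whole gate. Naive double-negative T cells (DNT cells) were sorted as CD4-CD8- cells that bound neither αGal-CD1d nor LPC-CD1d tetramers, in 2 biological replicates of 1 library each. Activated DNT cells, used only for counts of the rule, had been kept for 3 days with anti-CD3/CD28 and 20 ng/ml IL-2. The second replicates of DNT cells were made with 10x kit v3 and all other libraries with kit v2. How many mice went into each library is not given in the sources used here.

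Some CD8 T cells pass from a naive to a memory state, after a response to antigen or under the influence of cytokines alone. Such cells are known for CD44, for CD122 (the beta chain of the IL-2 and IL-15 receptors, Il2rb), for the chemokine receptor CXCR3 and for the T-box factor Eomes, and they hold RNA for the chemokine CCL5 at rest. Central memory cells keep homing to lymph nodes, while effector memory cells patrol other tissues and carry granzymes, KLRG1 and CX3CR1.

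The 7 libraries held 17409325 to 54834500 UMIs each, and CD8 held 24141400. Members had a median of 5688 UMIs, and CD8 barcodes without a Ccl5 UMI 4588.5. A Cd8a or Cd8b1 UMI was present in 99.3% of CD8 barcodes and a Cd4 UMI in 0. Of the members, 34 had a barcode that another library also held. No doublet caller was run.

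The TCRab library served as a second library. It was first read through its 1840 barcodes with at least 1 Cd8a or Cd8b1 UMI and no Cd4 UMI. However, of the 1255 TCRab barcodes with only 1 or 2 Cd8 UMIs, 38.2% (35.5% to 41%) had a Cd4 UMI, and so did 38.4% (36.2% to 40.7%) of the 1836 with none. Cd40lg, the CD40 ligand of helper T cells, stood at 44.9 CPM (UMIs of the gene per 1000000 UMIs of the set) in the former and 54.4 CPM in the latter, against 7.78 CPM in barcodes with 3 or more Cd8 UMIs. A stricter set of 1065 barcodes with 3 or more Cd8 UMIs and no Cd4 UMI was therefore added after the data were seen. Its barcodes are called TCRab CD8 barcodes, and all values of the TCRab library are theirs unless the wider set or the whole library is named.

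Ccl5 (chr11:83525778-83530518, minus strand, GRCm38, as for all positions) spanned a wide range among the members. In the CD8 library 2190 barcodes had no Ccl5 UMI, 1156 had 1, and 1298 had 2 or more, of which 19 lacked every companion gene. Just inside the limit stood 378 members with 2 UMIs and 134 with 3. The median member had 6 Ccl5 UMIs and the highest 544. Members were therefore read in layers: a low layer with 2 to 4 Ccl5 UMIs, a middle layer with 5 to 9 and a high layer with 10 or more.

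The high layer held 545 barcodes, which were 42.6% of members and 11.7% of CD8 barcodes, and 93.1% of the members' Ccl5 UMIs. The middle layer held 157 (12.3% of members). The low layer held 577 (45.1%), with 3.92% of the Ccl5 UMIs. Among TCRab CD8 barcodes, 236 of 1065 met the rule (22.2%, 19.7% to 24.8%), with 79, 28 and 129 barcodes from the low to the high layer. The high layer was 12.1% (10.2% to 14.2%) of TCRab CD8 barcodes, an interval that spans the 11.7% of the CD8 library. That 11.7% is of all kept CD8 barcodes. With 3 or more Cd8 UMIs asked for there too, the high layer held 483 of 4430. In the wider TCRab set 286 of 1840 barcodes met the rule (15.5%, 13.9% to 17.3%). Its high layer held 155 barcodes (8.42%, 7.19% to 9.79%), an interval below the 11.7% of the CD8 library. In both libraries the number of barcodes dropped steeply up to about 5 Ccl5 UMIs and then ran on in a long tail.

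**Figure D1:**
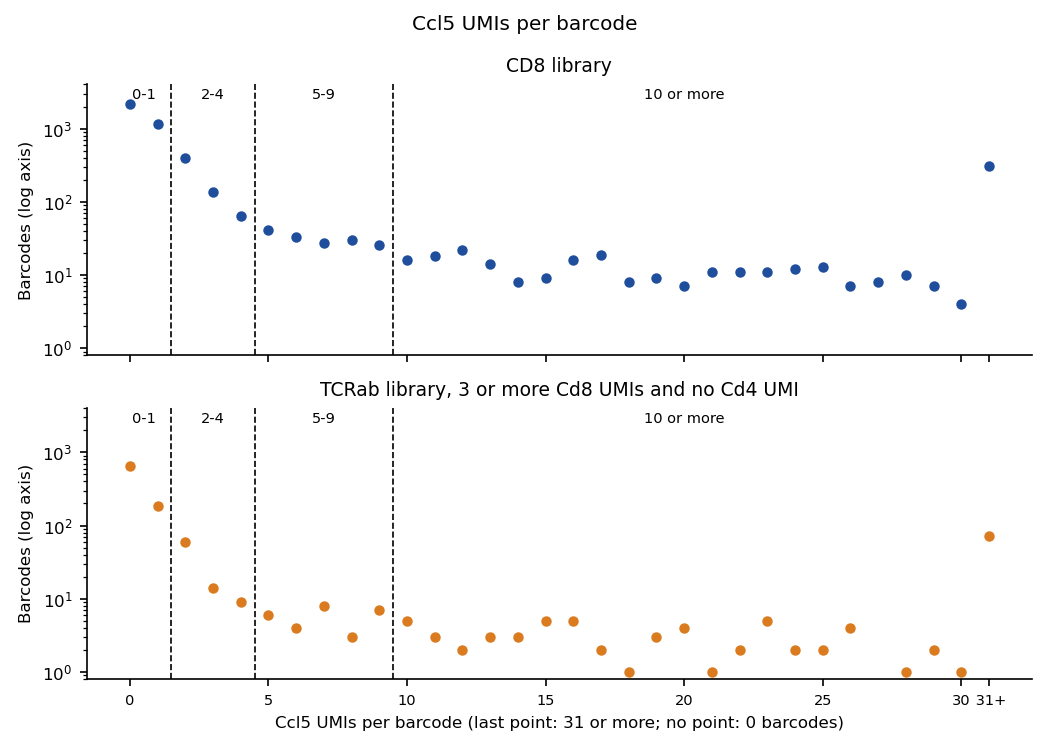
Number of kept barcodes (log axis) at each number of Ccl5 UMIs per barcode, in the CD8 library and among TCRab CD8 barcodes, with or without a companion gene. Dashed lines separate the layers, and the last point collects all barcodes with 31 or more UMIs, 306 in the CD8 library.

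Free RNA in droplets can give UMIs to cells that do not express a gene. In the CD8 library 10 barcodes were left out for a Cd79a UMI (median 5199 UMIs). Of these, 6 had a Ccl5 UMI (60%, 26.2% to 87.8%) and 1 had 2 or more, while 52.8% of kept CD8 barcodes had a Ccl5 UMI (median 4876 UMIs). In the CD4 library 7.61% of barcodes had a Ccl5 UMI and 1.98% had 2 or more. With 10 barcodes, the interval is too wide to place the share of kept CD8 barcodes above or below that of the Cd79a barcodes. Of these 10 barcodes, 0 had 2 or more Cd79a UMIs, so whether they were B cells or T cells is not known. Their Ccl5 share therefore cannot serve as a measure of free RNA. The part of free RNA in the low Ccl5 counts was not tested.

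The companion genes that the memory label rests on were all used by the rule, so their shares are a description and no support for the label. Nkg7, a granule protein of cytotoxic cells, set hardly any limit. It was present in 1265 members (98.9%), was the only companion in 502 (39.2%), and stood at 806 CPM even in barcodes without Ccl5. Cxcr3 was present in 438 members (34.2%), Il2rb in 432 (33.8%), Eomes in 221 (17.3%) and Cd44 in 203 (15.9%). To compare barcodes of unlike depth, each was thinned to 2000 UMIs. A companion other than Nkg7 was then present in 11.3% of barcodes without Ccl5, 16.7% of the low layer, 35% of the middle layer and 50.4% of the high layer. In the TCRab library these shares were 12.1%, 24.1%, 42.9% and 56.7%. In both libraries the share was highest in the high layer, and the low layer lay nearer to the barcodes without Ccl5 than to the high layer.

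From barcodes without Ccl5 through the low, middle and high layers, the cytokine receptor chain Il2rb stood at 24.7, 30.6, 96.9 and 146 CPM. Cxcr3 stood at 19.2, 47.6, 86.4 and 120.4 CPM and the adhesion receptor gene Cd44 at 6.64, 15.5, 23.7 and 46.7 CPM. Each of these was highest in the high layer, and Il2rb differed little between the low layer and barcodes without Ccl5. Eomes, in contrast, stood at 15.5, 25.9, 50.3 and 47.3 CPM and did not differ between the middle and high layers beyond counting error. Nkg7 stood at 806, 869, 991 and 1597 CPM. Within the TCRab library Il2rb stood at 29.3, 36.7, 134 and 163 CPM and Cxcr3 at 19.3, 57.1, 128 and 156 CPM, in the same order.

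Across the genes the rule had not used, a gene was called when its levels lay 2-fold or more apart and the larger one reached 20 CPM. Members had 39 higher genes (1.07% of 3650 tested) and 7 lower genes (0.192%) than CD8 barcodes without Ccl5. Among TCRab CD8 barcodes 59 genes were higher (1.52% of 3890) and 24 lower (0.617%). Of the higher genes, 31 were called in both libraries, which is 79.5% of the CD8 list and 52.5% of the TCRab list. All 7 lower genes of the CD8 library were called in the TCRab library too, 29.2% of its list. The wider TCRab set gave 75 higher (1.89% of 3964) and 26 lower genes (0.656%), with 32 of the higher ones shared.

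Of the 3 layers, the high layer had the most higher genes. Barcodes with 1 Ccl5 UMI had 0 higher and 0 lower genes of 3581 tested against barcodes with none. The low layer had 11 higher (0.303% of 3627) and 0 lower genes. When dividing barcodes were left out, 10 of them in the low layer, 0 genes were higher and 1, Ccr9, was lower. The middle layer had 26 higher (0.71% of 3661) and 36 lower genes (0.983%). The high layer had 96 higher (2.56% of 3754) and 29 lower genes (0.773%). Of the lower genes 4 were haemoglobins, carried by 6 barcodes with 20 or more red cell UMIs in the Ccl5-free set and 0 in the high layer. Without those barcodes 96 genes were higher and 25 lower. For TCRab CD8 barcodes the high layer had 116 higher (2.92% of 3971) and 75 lower genes (1.89%). That layer held 713063 UMIs, against 3321508 in the high layer of the CD8 library and 1052682 in its middle layer. The calls used no interval, so counts from sets of unlike UMI totals do not measure which set differs more. Of the higher genes 57 were shared (59.4% of the CD8 and 49.1% of the TCRab list), and of the lower genes 20 (69% and 26.7%). The shared lower genes include haemoglobins. Without 1 Ccl5-free TCRab CD8 barcode with 20 or more red cell UMIs, 117 genes were higher and 73 lower there. Hba-a1 then stood at 16.8 CPM in the high layer and 16 CPM without Ccl5, and Hbb-bs at 72.9 and 85.4 CPM. The high layer of the wider TCRab set had 119 higher (2.93%) and 92 lower genes (2.26%). Folds that follow set the high layer against barcodes without Ccl5 unless another pair is named.

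Barcodes with few CD8 transcripts were more frequent in the high layer. Fewer than 3 Cd8a and Cd8b1 UMIs were present in 62 of 545 high-layer barcodes (11.4%, 8.83% to 14.3%), and in 88 of 2190 barcodes without Ccl5 (4.02%, 3.24% to 4.93%). With 3 or more asked for in both sets, 96 genes were higher in the high layer, 93 of them among the 96, and 26 were lower, 24 of them among the 29. Gzma then stood at 415 CPM in the high layer, Gzmm at 137, Klrk1 at 111 and Klrc1 at 72.8 CPM.

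**Figure D2:**
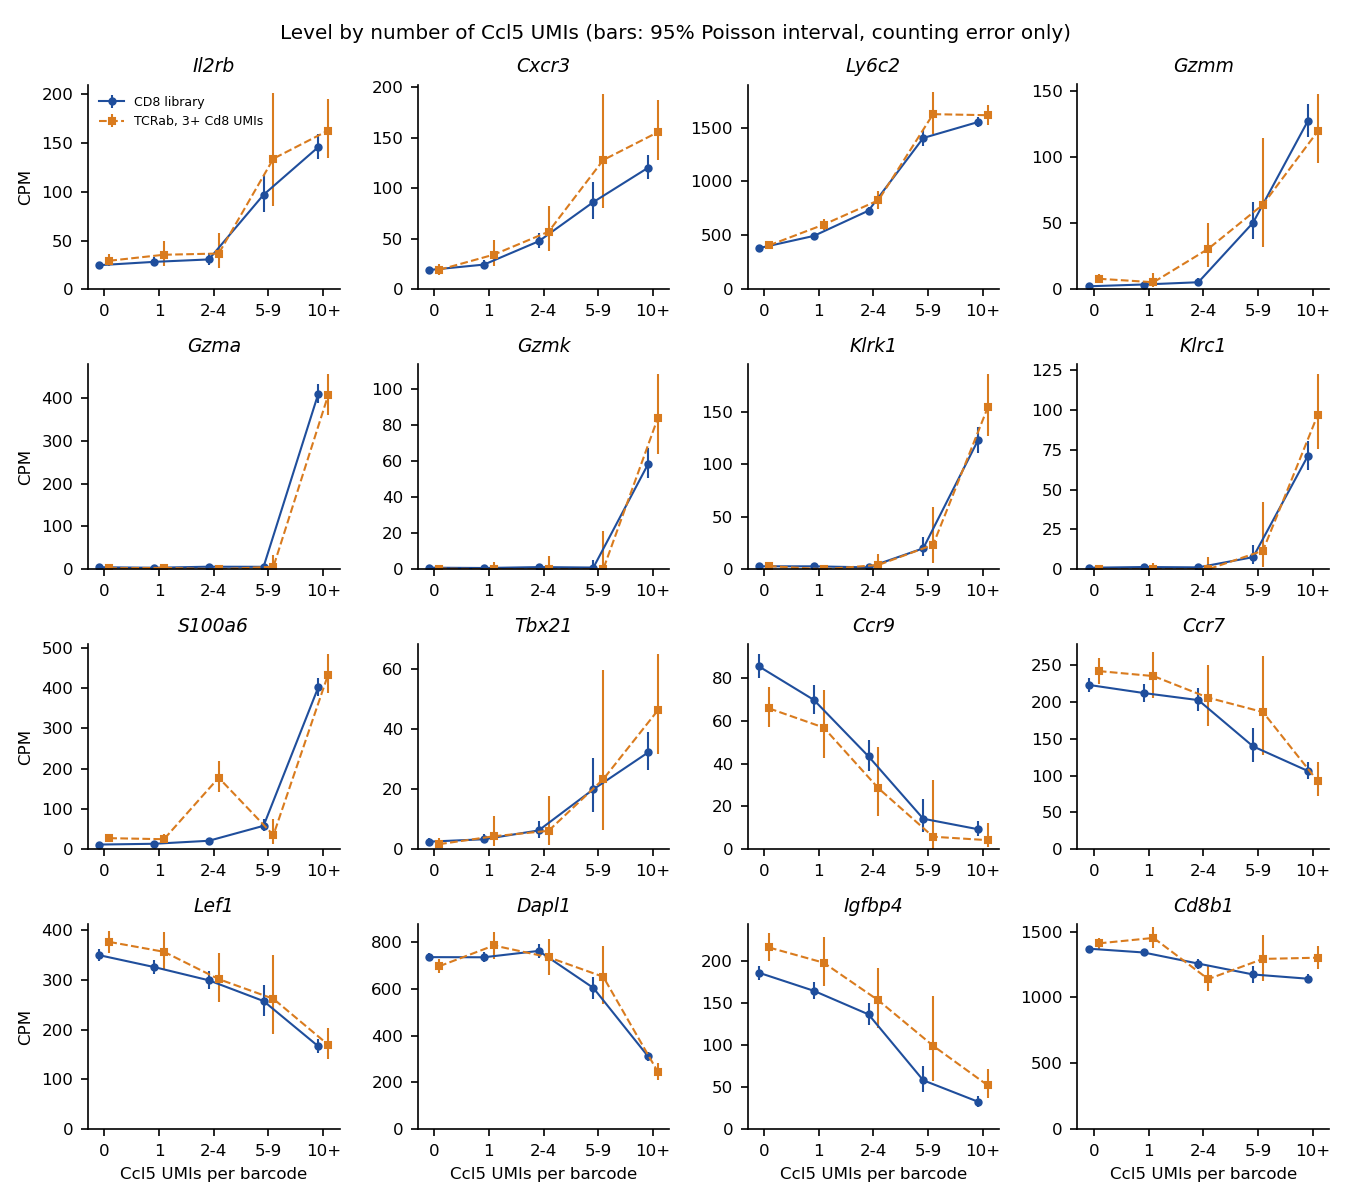
Levels in CPM (linear axes from 0) of 16 genes by number of Ccl5 UMIs per barcode, in the CD8 library (circles) and among TCRab CD8 barcodes (squares), with 95% Poisson intervals for counting error only. Gzma and Gzmk lay near 0 below 10 Ccl5 UMIs, Ly6c2 and Gzmm were already higher at 5 to 9, and Igfbp4, Lef1 and Ccr7 were lowest at 10 or more.

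Granzymes, proteases that cytotoxic cells deliver into target cells, had some of the largest ratios. Of 13 cytotoxic granule genes counted, 11 reached 20 CPM and 6 were higher in the high layer (Gzma, Gzmb, Gzmk, Gzmm, Serpinb6b and Serpina3g), with none lower. Their median log2 ratio, with 20 CPM added to each side here and in all list medians, was 0.85 against 0.00 over all tested genes. In the TCRab library 7 were higher, of 12 at 20 CPM, with a median of 0.88 against 0.00. In the CD8 library granzymes A, B and K had a detectable difference in the high layer and not below it, while the level of granzyme M was higher with each layer.

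Gzma (chr13:113093825-113100981, minus strand), a tryptase of cytotoxic cells, stood at 4.72 (3.49 to 6.24) CPM without Ccl5, 5.95 (3.63 to 9.18) in the low layer, 5.7 (2.09 to 12.4) in the middle layer and 410.4 (389 to 433) in the high layer. The intervals of the first 3 sets overlapped, and the high layer was 87-fold (65.4 to 118) higher. Within the TCRab library the ratio was 175-fold (83.7 to 438), with 407 against 2.33 CPM. Few cells carried this RNA, since 79 of 545 high-layer barcodes had a Gzma UMI and 9 barcodes held 50% of its UMIs.

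Gzmk (chr13:113171608-113225908, minus strand), a granzyme known from memory CD8 cells, stood at 0.866, 1.19, 0.95 and 58.4 CPM from 0 through the low, middle and high layers, 67.4-fold (34.8 to 149.7) higher. It was found in 77 high-layer barcodes, with 194 UMIs. Gzmb (chr14:56258838-56262260, minus strand), the main granzyme of effector cells, stood at 0.77, 0.892, 0.95 and 75 CPM, 97.4-fold (48.6 to 228) higher. It was found in 50 high-layer barcodes, of which 8 held 50% of its UMIs. Both were also higher among TCRab CD8 barcodes, Gzmb at 107 against 3.0 CPM and Gzmk at 84.1 against 0.333 CPM (1 UMI).

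Gzmm (chr10:79689020-79695261, plus strand), a granzyme also known from NK cells, was spread more evenly. It stood at 2.31 (1.48 to 3.44) CPM without Ccl5, 5.35 (3.17 to 8.46) in the low layer, 50.3 (37.7 to 65.9) in the middle layer and 127 (115 to 139.8) in the high layer. The middle layer was 21.8-fold (13.2 to 36.9) and the high layer 55-fold (36.5 to 86.8) higher. In the high layer 177 barcodes had a UMI of it, and 40 held 50% of its UMIs. Among TCRab CD8 barcodes it stood at 7.99, 30.6, 64 and 119 CPM, 14.9-fold (9.39 to 24.6) higher. Perforin (Prf1), which lets granzymes into the target cell, showed no difference detectable at this depth. It stood at 2.41 CPM in the high layer and 2.12 CPM without Ccl5, a ratio of 1.14 (0.438 to 2.65). Cathepsin W (Ctsw), a protease of cytotoxic lymphocytes, was 1.9-fold (1.75 to 2.06) higher, under the 2-fold limit.

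Promoters are shown for 3 genes that were each higher in the high layer, a granzyme, an NK receptor and a surface antigen. RefSeq (GRCm38.p6) gave promoters for 12 of the 15 genes with the largest ratios in members. The 250 bases before the start were searched on both strands for TGTGGT, letters bound by RUNX factors, and for AGGTGTNA, letters bound by T-box factors such as Eomes. The RUNX letters stood in a window of 8 of the 12 genes (Gzma, Gzmb, Gzmm, Klrc1, Klre1, Klrk1, Ly6c2 and S100a6), and in 15.9% of all 27025 genes with a promoter in the table. The T-box letters stood in 0 of the 12 and in 3.12% of all genes. A match of letters is a description, not a binding site. The sequences are of Gzma (chr13:113100982-113101231, minus strand), Klrk1 (chr6:129623865-129624114, minus strand) and Ly6c2 (chr15:75111972-75112221, minus strand), 5′ to 3′, with TGTGGT or its reverse complement ACCACA in capitals.
Gzma: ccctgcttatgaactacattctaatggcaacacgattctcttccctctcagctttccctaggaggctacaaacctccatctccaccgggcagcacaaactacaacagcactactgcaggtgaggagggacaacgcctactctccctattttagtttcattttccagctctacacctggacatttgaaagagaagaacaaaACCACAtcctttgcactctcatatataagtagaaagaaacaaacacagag
Klrk1: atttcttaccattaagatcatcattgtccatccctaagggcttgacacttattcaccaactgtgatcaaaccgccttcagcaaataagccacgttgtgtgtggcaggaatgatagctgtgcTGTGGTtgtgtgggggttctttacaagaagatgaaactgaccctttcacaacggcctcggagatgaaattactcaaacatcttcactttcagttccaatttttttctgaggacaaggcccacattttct
Ly6c2: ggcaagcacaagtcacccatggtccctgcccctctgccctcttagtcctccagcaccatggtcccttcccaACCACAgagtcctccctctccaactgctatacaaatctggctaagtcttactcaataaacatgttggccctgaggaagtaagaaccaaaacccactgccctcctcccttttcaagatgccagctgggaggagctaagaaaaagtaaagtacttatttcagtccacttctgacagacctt
The window of Gzmk, a gene higher in the same layer as Gzma, held neither motif.

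Receptors first known from natural killer (NK) cells, which many memory CD8 cells carry, were also higher. Of 27 counted, 15 reached 20 CPM and 10 were higher in the high layer (Klrc1, Klrk1, Klre1, Klrg1, Klra3, Klra6, Klra7, Cd160, Slamf7 and Fcer1g), with a median log2 ratio of 0.68. For TCRab CD8 barcodes 10 were higher, of 13 at 20 CPM, with a median of 0.61. These were not all the same genes, since Fcer1g lay under 20 CPM in the high layer there. Klrk1 (chr6:129610323-129623864, minus strand) encodes NKG2D, an activating receptor for stress ligands. It stood at 2.79 (1.87 to 4.01) CPM without Ccl5, 1.78 (0.655 to 3.88) in the low layer, 19.9 (12.3 to 30.5) in the middle layer and 123 (111 to 135) in the high layer. That was 44-fold (30.2 to 66.5) higher, and 51.5-fold (26.2 to 116) among TCRab CD8 barcodes. It was found in 135 high-layer barcodes.

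Klrc1 (chr6:129666015-129678973, minus strand), which encodes the inhibitory receptor NKG2A, stood at 0.963, 1.19, 7.6 and 71.1 CPM from 0 through the layers, 73.8-fold (39.4 to 156) higher. In the TCRab library it had 0 UMIs without Ccl5 and stood at 96.8 CPM in the high layer, at least 96.9-fold higher against a floor of 3 UMIs in the set at 0. Its partner CD94 (Klrd1) was already present without Ccl5, at 221 CPM, and was 1.52-fold higher in the high layer (336 CPM). The Ly49 gene Klra7 stood at 0.481 CPM without Ccl5 and 42.1 CPM in the high layer. Ly49 genes are close copies of each other, so their reads may have been split or lost between them. Klrg1, a receptor of late effector cells, stood at 0.0963 CPM (1 UMI) without Ccl5 and 31.3 CPM in the high layer, where 45 barcodes had a UMI of it.

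Ly6C (Ly6c2, chr15:75108158-75111970, minus strand), a surface antigen of memory CD8 cells, was shared by most cells of the middle and high layers. It stood at 382 (371 to 394) CPM without Ccl5, 495 (477 to 514) at 1 UMI, 729 (701 to 759) in the low layer, 1403 (1332 to 1477) in the middle layer and 1551 (1509 to 1594) in the high layer. Each step lay outside the counting interval of the one before. The high layer was 4.06-fold (3.89 to 4.23) higher, and 3.96-fold (3.65 to 4.3) among TCRab CD8 barcodes. After thinning, a Ly6c2 UMI was present in 32.4% of barcodes without Ccl5, 51.9% of the low layer, 88.5% of the middle layer and 84.8% of the high layer. Without thinning the first and last shares were 47.3% and 92.8%. Ly6c1 is a near-identical copy, and the split of reads between both is uncertain. Sca-1 (Ly6a) was 2.3-fold higher in the CD8 library (69.8 against 30.3 CPM) and 1.79-fold (1.35 to 2.37) higher among TCRab CD8 barcodes.

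Calcium-binding S100 proteins, galectins and annexins were listed together with Vim, Crip1 and Ahnak, since antigen-experienced T cells are known for high levels of many of them. Of the 14 genes on this list, 13 reached 20 CPM and 6 were higher (S100a4, S100a6, Lgals1, Lgals3, Anxa2 and Ahnak), with a median log2 ratio of 0.67. The same 6 were higher among TCRab CD8 barcodes, with a median of 0.67. S100a6 (chr3:90612882-90624181, plus strand) stood at 11.5 (9.49 to 13.7) CPM without Ccl5, 20.8 (16.2 to 26.3) in the low layer, 57.9 (44.3 to 74.4) in the middle layer and 402 (380.4 to 424) in the high layer, 35.1-fold (29 to 42.7) higher. A UMI of it was found in 232 high-layer barcodes. Within the TCRab library S100a6 had another order, with 27.3, 177, 34.9 and 433 CPM, and 1 of the 79 low-layer barcodes held 39 of that layer's 87 S100a6 UMIs, without which the layer stood at 99.4 CPM.

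Galectin-1 (Lgals1) stood at 171, 274, 353 and 837 CPM from 0 through the layers, 4.89-fold (4.61 to 5.2) higher, and was found in 429 high-layer barcodes. Annexin A2 (Anxa2) stood at 10.1, 23.8, 39.9 and 94.5 CPM, 9.35-fold (7.48 to 11.8) higher. Ctla2a, an inhibitor of cathepsin-like proteases, stood at 34.2, 60.7, 145 and 361 CPM, 10.6-fold (9.38 to 11.9) higher, and was found in 359 high-layer barcodes. Lgals1 and Ctla2a lay above the interval of the layer before at each step, while the intervals of Anxa2 overlapped between the low and middle layers.

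Chemokines other than Ccl5 were higher in fewer cells. Ccl3, Ccl4 and Xcl1 were higher, out of 15 chemokines and cytokines of which 7 reached 20 CPM (median log2 ratio 0.13). Xcl1, which attracts cross-presenting dendritic cells, stood at 7.8, 5.65, 38.9 and 66.5 CPM, 8.53-fold (6.59 to 11.1) higher, and 3.56-fold (2.38 to 5.3) among TCRab CD8 barcodes. Ccl4, a chemokine of the CC family like Ccl5, stood at 1.35 CPM without Ccl5 and 81.3 CPM in the high layer, but 1 barcode held 178 of its 270 UMIs. Without that barcode it stood at 27.8 CPM. For Ccl3, 1 barcode held 54 of 79 UMIs, and the level was 7.54 CPM without it in place of 23.8, under the 20 CPM limit. Interferon gamma RNA (Ifng) stood at 4.52 CPM in the high layer.

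Of 17 transcription factors of memory and effector cells, 9 reached 20 CPM and 5 were higher in the high layer (Tbx21, Id2, Zeb2, Ikzf2 and Hopx), with a median log2 ratio of 0.27. Among TCRab CD8 barcodes Tbx21, Id2 and Zeb2 were higher, of 8 at 20 CPM (median 0.31). T-bet (Tbx21), which drives effector genes, stood at 2.5, 6.24, 19.9 and 32.2 CPM from 0 through the layers, 12.9-fold (8.32 to 20.6) higher, and 27.8-fold (10.8 to 91.3) among TCRab CD8 barcodes. Id2 (chr12:25093799-25097140, minus strand), an inhibitor of E proteins, did not follow the layers. It stood at 82.1 (76.7 to 87.8) CPM without Ccl5, 66 (57.6 to 75.3) in the low layer, 28.5 (19.2 to 40.7) in the middle layer and 183 (168 to 198) in the high layer. The middle layer was 2.88-fold (2.0 to 4.3) lower than barcodes without Ccl5. Among TCRab CD8 barcodes, with 28 in the middle layer, Id2 stood at 76.9, 63.2, 111 and 272 CPM and had no such dip. Helios (Ikzf2) was 5.7-fold (4.42 to 7.39) higher in the CD8 library, while its ratio among TCRab CD8 barcodes was 1.62 (0.83 to 3.01). In the wider TCRab set Ikzf2 stood at 60.9 against 16.5 CPM, 3.68-fold higher.

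Both chains of the IL-18 receptor were higher, the only 2 of 18 cytokine receptors in the CD8 library (11 at 20 CPM, median log2 ratio 0.08). Il18r1 stood at 13.7, 19.9, 32.3 and 42.1 CPM and Il18rap at 2.02, 3.87, 20.9 and 22.3 CPM from 0 through the layers. The receptor chain for IL-7 (Il7r), which sustains resting T cells, stood at 148 CPM without Ccl5 and 163 CPM in the high layer. Of 19 chemokine receptors and integrins, 10 reached 20 CPM, Ccr2, Cx3cr1 and Itgb1 were higher and Ccr9 was lower (median 0.39). Cx3cr1, the fractalkine receptor of effector memory cells, stood at 27.4 CPM in the high layer, in 48 of 545 barcodes. The integrin chain Itgb1 stood at 12.3 CPM without Ccl5 and 55.7 CPM in the high layer, 4.52-fold (3.59 to 5.71) higher, and 4.42-fold (2.81 to 6.95) among TCRab CD8 barcodes.

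Genes of the naive and resting state were lower in part. Of 20 such genes, all at 20 CPM, 5 were lower in the high layer (Ccr7, Lef1, Bach2, Dapl1 and Igfbp4) and 0 higher, with a median log2 ratio of -0.28. For TCRab CD8 barcodes 5 were lower too (Ccr7, Lef1, Dapl1, Igfbp4 and Treml2), with a median of -0.39. Igfbp4 (chr11:99041244-99054392, plus strand), which binds insulin-like growth factors, stood at 186 (177 to 194), 136 (124 to 149), 57.9 (44.3 to 74.4) and 32.5 (26.7 to 39.3) CPM from 0 through the layers, 5.71-fold (4.7 to 6.99) lower. Dapl1 (chr2:59484653-59505020, plus strand) stood at 736, 763, 604 and 311 CPM, 2.37-fold (2.22 to 2.53) lower. The lymph node homing receptor Ccr7 (chr11:99144196-99155077, minus strand) stood at 223, 202, 139.6 and 106 CPM, 2.1-fold (1.88 to 2.35) lower, and 2.61-fold (2.03 to 3.42) among TCRab CD8 barcodes. Lef1 (chr3:131110471-131224356, plus strand), a partner of beta-catenin in naive T cells, stood at 349.6, 299, 257 and 166 CPM, 2.1-fold (1.92 to 2.3) lower. Of these, Igfbp4 was already well below its Ccl5-free level in the middle layer, while Dapl1 was not lower in the low layer. TCF1 (Tcf7), a factor of naive and memory T cells, stood at 157 CPM without Ccl5 and 143 CPM in the high layer.

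Ccr9 (chr9:123678439-123784330, plus strand), a homing receptor for gut and thymus, was lower with each layer. It stood at 85.5 (79.9 to 91.3) CPM without Ccl5, 69.8 (63.2 to 77) at 1 UMI, 43.4 (36.7 to 51.1) in the low layer, 14.2 (7.98 to 23.5) in the middle layer and 9.33 (6.34 to 13.2) in the high layer, 9.16-fold (6.41 to 13.6) lower. The intervals of the middle and high layers overlapped. In the TCRab library Ccr9 stood at 65.9 CPM without Ccl5 and 4.21 CPM (3 UMIs) in the high layer. Rgcc, a regulator of the cell cycle, stood at 144 and 32.8 CPM, 4.39-fold (3.62 to 5.39) lower. Ramp1, part of the receptor for the neuropeptide CGRP, stood at 95.2 and 20.8 CPM, 4.58-fold (3.59 to 5.94) lower.

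**Figure D3:**
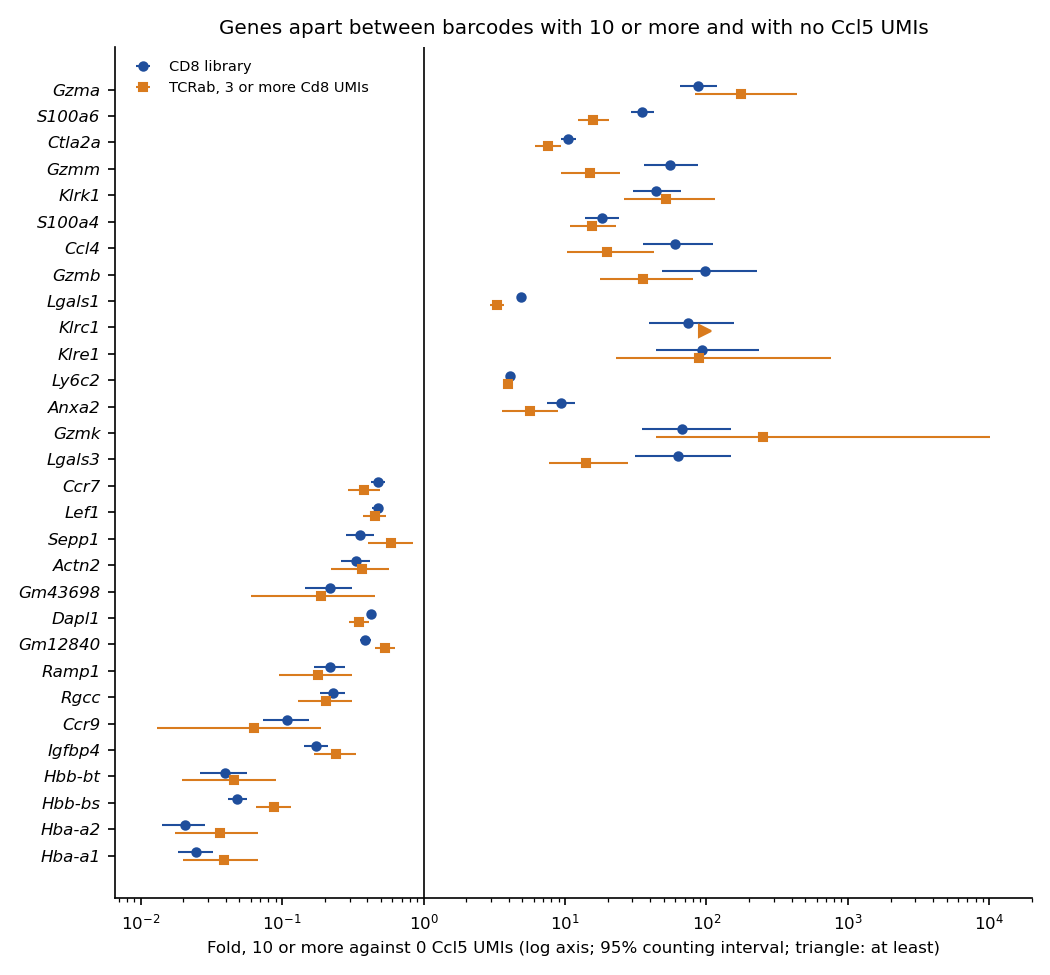
Fold (log axis) between barcodes with 10 or more and with no Ccl5 UMIs for the 15 called genes with the largest and the 15 with the smallest ratio in the CD8 library, shown for that library (circles) and for TCRab CD8 barcodes (squares), with 95% intervals for counting error only; the triangle is a lower bound. The 4 haemoglobin genes lead the lower side and rest on red cell barcodes of the Ccl5-free sets. These were 6 barcodes in the CD8 library and 1 among TCRab CD8 barcodes. Without that 1 barcode, not left out of the plot, Hba-a1 stood at 16.8 against 16 CPM. Each gene drawn lay on the same side of 1 in both, Gzma at 87-fold and 175-fold.

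Several lists held no called gene between the high layer and CD8 barcodes without Ccl5. These were T cell receptor signalling (0 of 14, median log2 ratio 0.07), interferon response (0 of 12, -0.17), immediate early genes (0 of 13, -0.18), glycolysis (0 of 11, 0.03), ribosomal proteins (0 of 15, -0.05) and coinhibitory receptors (0 of 8, of which 1 reached 20 CPM, 0.12). Of 10 BCL2 family genes, Bcl2a1b, Bcl2a1d and Bbc3 were higher (median 0.33), and only Bbc3 among TCRab CD8 barcodes. The CD8 chains were slightly lower in the high layer, Cd8b1 at 1142 against 1369.8 CPM and Cd8a at 395 against 521 CPM.

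Markers of other cells were summed in the high layer and in CD8 barcodes without Ccl5. CD4 T cell markers summed to 0.301 against 0.481 CPM, with Cd4 and Foxp3 at 0 UMIs in both. B cell markers summed to 24.7 against 43.6 CPM, myeloid markers to 101 against 86.2 CPM and platelet markers to 0.903 against 1.64 CPM. Gamma-delta T markers summed to 5.72 against 0.193 CPM, with 3 of 4 at 0 in each set. NKT and MAIT markers summed to 4.52 against 0.385 CPM, with Zbtb16 and Il4 at 0 in both. The rest was Klrb1c, which encodes the NK1.1 antigen used to gate cells out, with 15 UMIs in the high layer. NK cell markers summed to 485 against 7.7 CPM, with 2 of 7 higher, Gzma (410.4 CPM in the high layer) and Klre1 (62.6 CPM), both also on the lists of granule genes or NK receptors. Of the other 5, Tyrobp stood at 6.32 (3.91 to 9.66) against 1.83 (1.1 to 2.86) CPM and Klrb1c at 4.52 (2.53 to 7.45) against 0.385 (0.105 to 0.986) CPM. Klra8 had 2 and 0 UMIs, Klri2 1 and 0, and Ncr1 0 and 1. The part of other cells in the results was not tested.

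Genes of dividing cells were higher through a small number of barcodes. Barcodes with a UMI of at least 2 of 7 division genes made up 27 of 1279 members (2.11%, 1.4% to 3.06%) and 10 of 2190 barcodes without Ccl5 (0.457%, 0.219% to 0.838%). Those of the low layer had a median of 17799.5 UMIs, against 5364 in the rest of the layer. Stathmin (Stmn1), which is high in dividing cells, stood at 97.3 CPM in members and at 20.8 CPM without the dividing ones. Without all dividing barcodes 28 genes were higher in members, 27 of them among the 39, and 75 in the high layer, all among the 96. Among TCRab CD8 members 5 of 236 (2.12%) were dividing by this measure. The 4 haemoglobin genes among the 7 lower genes rested on a few barcodes as well: 13 CD8 barcodes with 20 or more red cell UMIs, 1 of them a member, held 59741 of 61653 such UMIs. Without those barcodes 3 genes were lower in members.

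Within the high layer, barcodes with effector genes stood apart. The 538 high-layer barcodes with 2000 or more UMIs were thinned to that depth and split by any UMI of Klrg1, Cx3cr1, Zeb2, S1pr5 or Gzma. These 5 genes made the split and are not compared across it. Such a UMI was present in 77 barcodes (14.3%, 11.5% to 17.6%), and in 25 of 127 TCRab CD8 barcodes of the high layer (19.7%, 13.2% to 27.7%). Ccl5, which had chosen the layer, stood at 41721 CPM with effector genes and 8377 CPM without them, 4.98-fold apart, and 5.18-fold apart among TCRab CD8 barcodes.

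Gzmb and Gzmk, granule genes that had not made the split, were higher in the same barcodes. Gzmb stood at 448 CPM with effector genes and 7.59 without, 59-fold (27.2 to 152) higher. Gzmk stood at 409 and 26 CPM, 15.7-fold (9.68 to 26.3) higher, and 25.3-fold (9.75 to 83.3) among TCRab CD8 barcodes. Klrk1 was 6.86-fold (5.05 to 9.34) and Klrc1 7.98-fold (5.07 to 12.7) higher. Lgals1 was 6.26-fold (5.48 to 7.14) higher, and 5.96-fold (4.6 to 7.74) among TCRab CD8 barcodes. Id2 stood at 825 and 151 CPM, 5.47-fold (4.27 to 7.01) higher, and 6.12-fold (3.99 to 9.48) among TCRab CD8 barcodes. Ly6c2 and Gzmm, in contrast, had ratios of 0.978 (0.85 to 1.12) and 0.819 (0.453 to 1.39) in the CD8 library. Gzmm was 2.65-fold (1.21 to 5.6) higher among TCRab CD8 barcodes.

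Tcf7 was lower in the barcodes with effector genes in both libraries. It stood at 45.5 CPM with effector genes and 171 CPM without, 3.77-fold (1.79 to 9.53) lower, and 3.35-fold (1.07 to 16.9) among TCRab CD8 barcodes. Id3, known from long-lived memory cells, was 5.64-fold (2.15 to 21) lower and Lef1 2.71-fold (1.43 to 5.75) lower in the CD8 library. Il2rb, a gene of the rule, was 2.77-fold (1.42 to 6.17) lower there. Within the TCRab library the ratios of Lef1 (0.816 (0.306 to 1.86)) and Il2rb (0.96 (0.384 to 2.11)) spanned 1. The low values rest on few molecules, 4 UMIs for Id3 and 7 for Tcf7 in the CD8 library.

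Applied to the other libraries, the same rule was met by 3738 of 3972 (94.1%) barcodes of naive DNT replicate 1 and 5317 of 6525 (81.5%) of replicate 2. In activated DNT cells it was met by 1065 of 1788 (59.6%) and 774 of 1530 (50.6%), in the whole TCRab library by 390 of 4266 (9.14%) and in CD4 by 87 of 5008 (1.74%). CD8 members had 41 higher (1.04% of 3960) and 196 lower genes (4.95%) than naive DNT members of replicate 1. For cells of more similar Ccl5 level, the CD8 high layer was set against the 2961 naive DNT barcodes of replicate 1 with 10 or more Ccl5 UMIs. In that comparison 47 genes were higher in CD8 (1.21% of 3892) and 138 lower (3.55%). The sort gate and the library cannot be told apart here.

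Genes of the rule stood at the following levels in the 2 high layers. Ccl5 stood at 10129.7 CPM in CD8 and 15194 CPM in naive DNT replicate 1, Nkg7 at 1597 and 1455 CPM, Cxcr3 at 120.4 and 93.1 CPM, and Cd44 at 46.7 and 51.4 CPM. Il2rb stood at 146 and 248 CPM. Eomes stood at 47.3 and 33.8 CPM. For each of the 6 genes the 2 levels lay within 2-fold of each other. As the gates require, Cd8b1 stood at 1142 against 5.24 CPM and Cd8a at 395 against 0.77 CPM.

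All 4 called granzymes were higher in the CD8 cells. In CD8, TCRab CD8, naive DNT replicate 1 and naive DNT replicate 2, Gzma stood at 410.4, 407, 78.5 and 37.4 CPM, 5.23-fold (4.82 to 5.67) higher in CD8 than in replicate 1. Gzmm stood at 127, 119, 7.32 and 7.31 CPM, 17.4-fold (13.9 to 21.9) higher. Gzmk stood at 58.4, 84.1, 6.78 and 2.19 CPM, 8.62-fold (6.66 to 11.2) higher, and Gzmb at 75, 107, 10.9 and 13.9 CPM, 6.9-fold (5.59 to 8.55) higher. For each of them both CD8 sets lay above both DNT libraries. Over the 13 granule genes the median log2 ratio was 0.08, against -0.04 over all tested genes.

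Dapl1 and Igfbp4, lower in the high layer than in Ccl5-free CD8 cells, were still higher than in naive DNT cells, and Il6ra was higher than in naive DNT cells too. In the same order of libraries Dapl1 stood at 311, 244, 52.6 and 45.9 CPM, 5.91-fold (5.36 to 6.52) higher in CD8 than in replicate 1. Igfbp4 stood at 32.5, 51.9, 3.62 and 3.26 CPM, 8.98-fold (6.32 to 12.9) higher. The IL-6 receptor chain Il6ra stood at 27.1, 36.5, 4.55 and 8.51 CPM, 5.96-fold (4.25 to 8.42) higher. It stood at 52.7 CPM in Ccl5-free CD8 cells, under the 2-fold limit. Klrg1 stood at 31.3, 37.9, 2.62 and 1.62 CPM, 12-fold (8.05 to 18.2) higher, and Ly6a at 69.8, 104, 9.48 and 10.4 CPM, 7.37-fold (5.9 to 9.25) higher.

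NK receptors and their adaptors were mostly lower in the CD8 cells. Of 27 counted, 18 reached 20 CPM, 10 were lower and 1, Klrg1, was higher, with a median log2 ratio of -0.47. Fcer1g, the Fc receptor gamma chain that couples such receptors to signalling, stood at 27.1, 19.6, 359 and 253 CPM in CD8, TCRab CD8, naive DNT replicate 1 and replicate 2, 13.2-fold (10.7 to 16.5) lower in CD8 than in replicate 1. Klra7 stood at 42.1, 21, 243 and 143 CPM, 5.77-fold (4.87 to 6.88) lower, and Klrk1 at 123, 154, 320.0 and 279 CPM, 2.61-fold (2.35 to 2.89) lower. Klrc1, at 71.1, 96.8, 65.6 and 58 CPM, had a ratio of 1.08 (0.934 to 1.25) to replicate 1. Cd7, a surface protein of T and NK cells, stood at 217, 257, 617 and 442 CPM, 2.84-fold (2.63 to 3.07) lower.

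Helios (Ikzf2), known from agonist-selected T cells, stood at 52.7, 21, 355 and 463 CPM in the same 4 sets, 6.74-fold (5.8 to 7.89) lower in CD8 than in replicate 1. Xcl1 stood at 66.5, 68.7, 246 and 239.9 CPM, 3.7-fold (3.23 to 4.26) lower, and Ifng at 4.52, 12.6, 58.8 and 100.5 CPM, 13-fold (7.84 to 23.4) lower. Immediate early genes, which stimulation of a cell induces within minutes, were lower in 11 of 13 against replicate 1 (median log2 ratio -1.80) and in 12 of 13 against replicate 2 (-2.63). Over all tested genes, 3.55% were lower against replicate 1 and 33.1% against replicate 2, which was made with another kit. Dusp1, a phosphatase of MAP kinases, stood at 10.2, 9.82, 343 and 459 CPM, 33.5-fold (23.9 to 48.4) lower. Fos (chr12:85473890-85477273, plus strand), a subunit of AP-1, stood at 26.5, 33.7, 502 and 369 CPM, 18.9-fold (15.3 to 23.6) lower.

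Against naive DNT replicate 2, made with kit v3, 105 genes were higher in the CD8 high layer (2.05% of 5130) and 1696 lower (33.1%). The median log2 ratio over all tested genes was -0.39 there and -0.04 against replicate 1. Between all members, 108 genes were higher in CD8 (2.07%) and 1904 lower (36.6%) than in replicate 2. In the high layers, of the 47 higher genes 34 (72.3%, and 32.4% of the second list) and of the 138 lower genes 113 (81.9% and 6.66%) were called against both replicates. Both comparisons share the CD8 cells. Kit and library cannot be told apart in replicate 2.

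**Figure D4:**
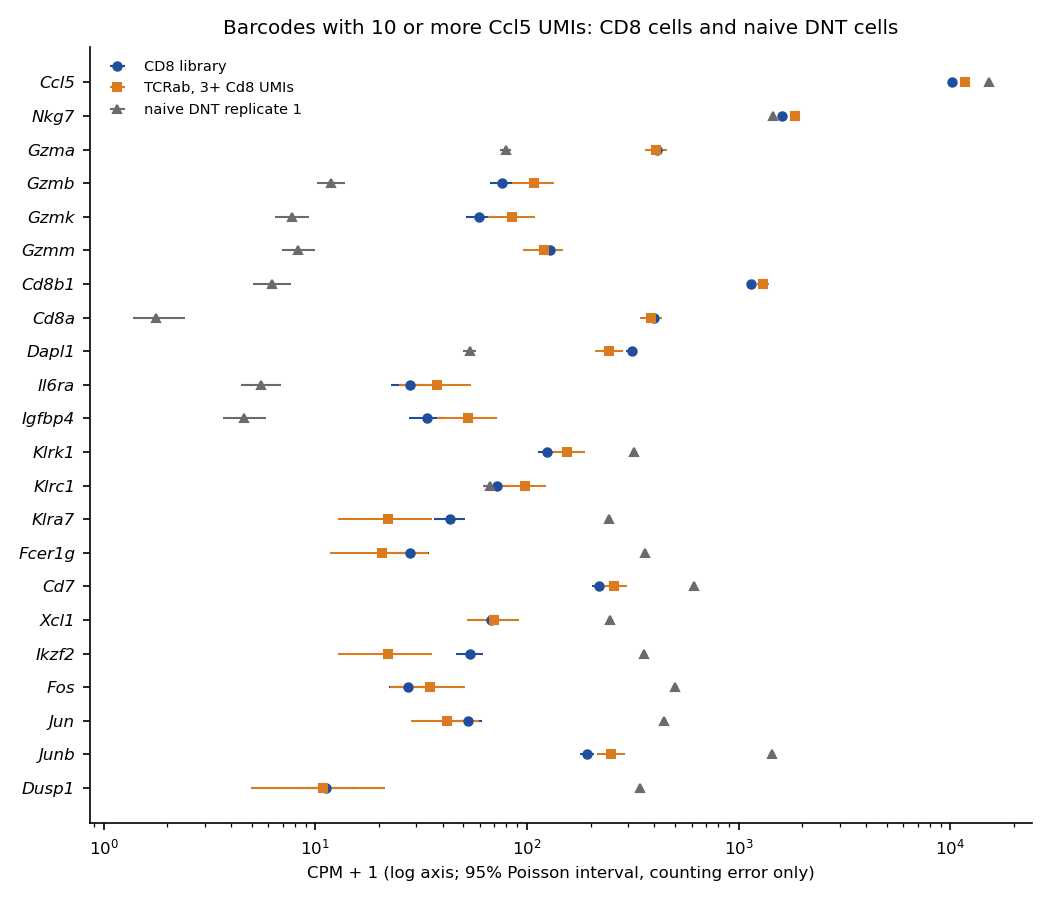
Levels (CPM + 1, log axis) of 22 genes in barcodes with 10 or more Ccl5 UMIs of the CD8 library (circles), among TCRab CD8 barcodes (squares) and in naive DNT replicate 1 (triangles), with 95% Poisson intervals for counting error only. The granzymes lie further right in both CD8 sets, and Fcer1g, Ikzf2, Fos and Dusp1 lie further right in naive DNT cells.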

How the data were processed

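Per the submitters' processing notes, the authors used Cell Ranger 2.1.0 and 3.0.1 and mm10 (GRCm38), and version 3.0.2 stands in the header of each kit v3 matrix. The deposited matrices hold raw UMI counts per gene and barcode. The 27514 genes common to both references were used. Counts were summed over the barcodes of a set and scaled to CPM. Levels have Poisson, ratios exact conditional and shares exact binomial (Clopper-Pearson) 95% intervals. Against a set at 0, a floor of 3 UMIs was used. With 1 library per group, no test was made. Dividing barcodes were those with UMIs of at least 2 of Mki67, Top2a, Birc5, Ccna2, Cdk1, Tk1 and Rrm2. Named genes came from 27 lists and from the called genes with the largest ratios, 15 each way for members against barcodes without Ccl5 and 10 each way against naive DNT cells. The genes of the fold plot were chosen after their values were seen. The members and the lists were chosen with earlier results of these data known. Calls by layer, the split within the high layer, the stricter TCRab set and the settings without dividing, red cell or few-Cd8 barcodes were added after the data were seen. The calls were tried on simulated counts without variation between barcodes. That trial does not cover genes whose UMIs lie in few barcodes. Gene positions are from GENCODE vM21. A gene and a split that were analysed are not reported here. Intervals were computed with SciPy 1.17.1, sums with NumPy 2.4.6 and pandas 2.3.3, and figures with matplotlib 3.10.9, under Python 3.11.15.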

Additional observations from a re-analysis of the deposited data

Results flagged for a closer look

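In the CD8 and TCRab libraries, 7 genes were higher in barcodes with 10 or more Ccl5 UMIs than in those with 0 or 1, while in both naive DNT libraries the same genes were lower. The genes were picked because they differed in this way between the cell types, so the opposite directions are a description. The number of genes screened is not given here. The difference between the cell types was not tested. The naive DNT sets with 0 or 1 Ccl5 UMIs held 145 and 1179 barcodes, with a median of 2549 and 6739 UMIs, against 4228 and 7742 in those with 10 or more; the part of depth was not tested. Id2, an inhibitor of E proteins, stood at 183 against 79.8 CPM in the CD8 library, 2.29-fold higher, and was 3.69-fold higher among TCRab CD8 barcodes, 3.04-fold lower in naive DNT replicate 1 (118 against 359 CPM) and 3.93-fold lower in replicate 2. Slamf7, a receptor of cytotoxic lymphocytes, stood at 23.5 against 4.34 CPM in the CD8 library, 5.42-fold higher, and was 9.77-fold higher among TCRab CD8 barcodes, 9.18-fold lower in naive DNT replicate 1 (21.6 against 198 CPM) and 4.0-fold lower in replicate 2. Ccr2, a receptor for inflammatory chemokines, stood at 21.1 against 0.496 CPM in the CD8 library, 42.5-fold higher, and was 31.3-fold higher among TCRab CD8 barcodes, 9.76-fold lower in naive DNT replicate 1 (5.01 against 48.9 CPM) and 14.2-fold lower in replicate 2. S100a4, a calcium-binding protein, stood at 114 against 6.26 CPM in the CD8 library, 18.1-fold higher, and was 17.3-fold higher among TCRab CD8 barcodes, 6.34-fold lower in naive DNT replicate 1 (59.4 against 376 CPM) and 12.5-fold lower in replicate 2. S100a6, a calcium-binding protein, stood at 402 against 12.1 CPM in the CD8 library, 33.1-fold higher, and was 16.2-fold higher among TCRab CD8 barcodes, 2.13-fold lower in naive DNT replicate 1 (306 against 650.1 CPM) and 4.81-fold lower in replicate 2. Lgals1, galectin-1, stood at 837 against 177 CPM in the CD8 library, 4.73-fold higher, and was 3.36-fold higher among TCRab CD8 barcodes, 2.11-fold lower in naive DNT replicate 1 (397 against 838 CPM) and 4.24-fold lower in replicate 2. Lgals3, galectin-3, stood at 48.8 against 1.3 CPM in the CD8 library, 37.5-fold higher, and was 16.2-fold higher among TCRab CD8 barcodes, 5.74-fold lower in naive DNT replicate 1 (26 against 149 CPM) and 9.59-fold lower in replicate 2.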

How the results depend on the processing

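Shares and counts of called genes moved with the number of Ccl5 UMIs asked for. At 1, 3 and 10 or more UMIs the CD8 share was 50.5%, 19.4% and 11.7%. Higher genes numbered 19, 59 and 96 and lower genes 1, 15 and 29, of 3604, 3680 and 3754 tested. In the wider TCRab set the share was 27.6%, 12% and 8.42%, with 34 and 119 higher genes at 1 and 10 UMIs and 8, 49 and 92 lower genes. Thinned to 2000 UMIs, the shares were 15.1% and 10.4%, lower genes numbered 11 in CD8, and the wider TCRab set had 144 higher and 98 lower genes. With 3 or more Cd8 UMIs asked for, a setting chosen after the data were seen, the TCRab share was 22.2%.

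With a floor of 5 CPM, higher and lower genes numbered 139 and 30 in CD8, 286 and 229 in the wider TCRab set, and 125 and 453 against naive DNT cells. With a floor of 50 CPM, 13 were higher in CD8, 25 higher and 11 lower in the wider TCRab set, and 17 higher and 102 lower against naive DNT cells. Counts at unlike floors are out of unlike numbers of tested genes. In CD8 these numbers were 7421 at 5 CPM, 3650 at 20 CPM and 1660 at 50 CPM. At 3-fold, 1 was lower in CD8, 35 higher and 9 lower in the wider TCRab set, and 15 higher and 84 lower against naive DNT cells. With naive DNT replicate 2 in place of replicate 1, at 2-fold and 20 CPM, 108 were higher (2.07% of 5205) and 1904 lower (36.6%). Without a companion gene asked for, 3 genes were lower in CD8, and with means of each cell's CPM 43 were lower in the wider TCRab set. Without barcodes of 20 or more red cell UMIs, also chosen after the data were seen, 3 were lower in CD8, and the log2 ratios of Hbb-bs (0.0406) and Hbb-bt (0.0106) changed sign. Apart from the red cell setting, which left out named barcodes, the cause was not tested.

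Of the shares and gene counts under all settings, 63 stayed near the reported value and 44 moved. Of the named genes' ratios, 202 stayed, 82 moved and 2 changed sign. No paired analysis was possible because CD8 has 1 library and no test was made. A single UMI is near the limit of detection, so a gene at 0 in a barcode may still be expressed.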
